A study of Mus musculus with 10 samples.

Results

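Peroxisome proliferator-activated receptors (PPARs) and their direct targets were examined in cardiac endothelial cells (ECs) of mice fed a ketogenic or a control diet. The set was fixed by name, with earlier results of these data known. It comprised 10 of the 46983 genes in the deposited table. These were the 3 receptors Ppara, Ppard and Pparg, the partner receptors Rxra and Rxrb, the corepressor Ncor1 and the targets Angptl4, Ucp2, Ucp3 and Vldlr. All 10 passed the filter on low counts and were among the 15949 genes tested. Male wild-type C57BL/6J mice, 8 weeks old at the start, received the control diet D12359 (n = 5) or the ketogenic diet D17011501 (n = 5), which supplies nearly all of its energy as fat, for 14 days. In both groups the diet was offered in addition to standard chow on the first 2 days. Cardiac ECs were taken from digested hearts with magnetic beads carrying a CD31 antibody, and 1 polyA RNA-seq library per mouse was made, without strand information. Expression is given as CPM, the counts scaled to library size with edgeR's TMM factors, and, where genes are set beside each other, as RPKM, which is also scaled to gene length.

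PPARs are nuclear receptors that bind fatty acids and their derivatives. They sit on DNA as heterodimers with a retinoid X receptor (RXR), at paired AGGTCA hexamers spaced by a single base. Without ligand, corepressors such as NCoR1 keep target genes low, and ligand exchanges them for coactivators. In heart and muscle, PPARα and PPARδ are known for the genes of fatty acid oxidation. PPARγ, best known from adipocytes, is also present in vascular endothelium, where it takes part in fatty acid uptake.

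The libraries held between 10885154 and 12710861 counted reads. The endothelial markers Pecam1 and Cdh5 had 613 and 652 CPM on the control diet and 577 and 633 CPM on the ketogenic diet, and the summed level of 11 endothelial markers was 5318 to 5743 and 5117 to 5715 CPM. RNA of other cell types was also present. All 12 cardiomyocyte markers were higher on the ketogenic diet, with log2 fold changes from 0.10 for Tnnt2 to 1.03 for Ttn. Of these, 10 had an unadjusted p under 0.05. None had an adjusted p under 0.05 in edgeR (0 of 12). In DESeq2, where 2.89% of all genes were higher and 349 genes were lower, 6 of these 12 markers passed. Their summed level was 684 to 891 CPM in control and 815 to 1174 CPM in ketogenic mice (two-sided exact permutation test, p = 0.0159), with Myh6 at 44.2 ± 15.7 and 64.8 ± 16.9 CPM (SD, n = 5 each). Adipocyte markers were at or near 0. None of 7 passed the filter, Adipoq had 0 to 9 reads and Plin1 0 to 2. Of 9 macrophage markers 7 were lower on the ketogenic diet, 4 of them at an unadjusted p under 0.05 and 0 adjusted in edgeR. Their sum gave an exact permutation p of 0.270. Control mouse 1 held the highest summed level (791 CPM, against 222 to 353 CPM in the other control mice and 209 to 401 CPM in the ketogenic mice). The leukocyte marker Ptprc had 74.4 ± 28.9 and 53.4 ± 13.7 CPM. The 6 markers of erythroid cells and platelets summed to 548 to 739 and 397 to 611 CPM (exact permutation p = 0.0317). They gave 0 adjusted and 3 unadjusted calls, all lower, in edgeR and 2 adjusted calls, both lower, in DESeq2. The 6 lymphocyte markers summed to 198 to 291 and 151 to 192 CPM (exact permutation p = 0.00794). Among them the B cell gene Cd79a, named after its values had been seen, fell by 0.46 on the log2 scale (adjusted p = 0.0221 from edgeR), and 3 genes fell in DESeq2. Fibroblast and smooth muscle markers showed 0 adjusted and 0 unadjusted calls in edgeR and in DESeq2, with summed levels of 582 to 657 and 565 to 686 CPM and of 2509 to 2711 and 2438 to 2695 CPM. In bulk RNA of this kind, fewer cells of a type and less RNA per cell cannot be told apart. The deposited counts also had a ceiling. In no library did any gene exceed 2.04 to 2.17 reads per base of its length, about 1 read per position and strand. Differences of abundant genes, markers among them, may therefore be compressed. Over all 10 mice Pecam1 had 6770 to 7020 reads and Cdh5 7356 to 7571. Of 2 markers named after their values had been seen, Tagln (smooth muscle) had 2083 to 2177 and Kdr (endothelial) 7281 to 9501. For markers with a narrow count range, similar levels on both diets cannot show similar cell content.

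Angptl4 and Ucp3 rose on the ketogenic diet, with adjusted p-values of 0.00885 and 0.0178 (edgeR, quasi-likelihood F-test, Benjamini-Hochberg adjustment over all tested genes). Thus 2 of 10 members passed and 0 fell, where 1.34% of all tested genes passed in either direction, 0.809% of them higher and 0.527% lower. The members were chosen with earlier results of these data known, so these shares only describe the set. Vldlr and Ppara were also higher, by 1.36 and 0.72 on the log2 scale, without reaching the adjusted threshold. At an unadjusted p under 0.05, 5 members were higher (Angptl4, Ucp3, Vldlr, Ppara and Pparg) and 0 lower, beside 8.57% higher and 9.26% lower over all tested genes. Log2 fold changes were positive for 9 members and had a median of 0.17, against −0.01 over all tested genes. The partner receptors, Ncor1 and Ucp2 lay close to 0. The labels name no litter, cage or batch, so p-values measure only the spread between these numbered samples.

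**Figure D1:**
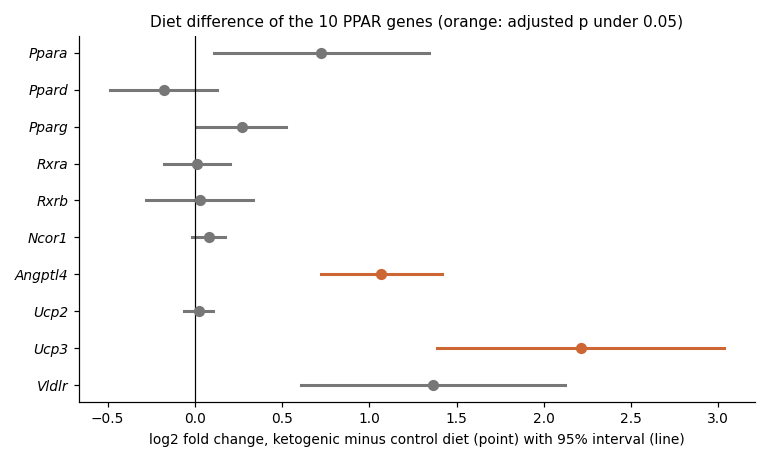
Log2 fold change of each of the 10 genes on the ketogenic relative to the control diet (point, horizontal axis) with its 95% interval from edgeR (line, n = 5 mice per diet). Angptl4 and Ucp3, in orange, had an adjusted p under 0.05, and the intervals of Rxra, Rxrb, Ncor1, Ppard and Ucp2 include 0.

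Pparg (ENSMUSG00000000440.12, chromosome 6 from 115360951 to 115490399 of GRCm38) was by far the most abundant PPAR transcript in cardiac ECs. Its deposited counts were 1138, 1838, 1468, 1418 and 1441 in control mice 1 to 5 and 1964, 1528, 1534, 1675 and 2514 in ketogenic mice 1 to 5. Scaled to depth, the control mice had 106, 151, 131, 128 and 125 CPM and the ketogenic mice 167, 137, 129, 140 and 197 CPM. The groups overlapped, and the highest values were those of ketogenic mice 5 and 1. Mean expression was 128 ± 16.1 and 154 ± 27.7 CPM (SD, n = 5 each), a log2 fold change of 0.27 (standard error 0.118, 95% interval 0.01 to 0.52, adjusted p = 0.259 from edgeR). Regrouping the mice gave an exact permutation p of 0.111. Without ketogenic mouse 5 the log2 fold change was 0.17. It was 0.48 with each mouse's cardiomyocyte marker score (the mean log2 CPM of the 12 markers) as a covariate (unadjusted p = 0.0114, adjusted p = 0.301 from edgeR) and 0.42 after a correction for start positions chosen after the data had been seen (adjusted p = 0.246 from edgeR). Counts amounted to 41.3% and 52.2% of the start positions (2 per base) on its principal transcript on the control and the ketogenic diet. The correction used this transcript. Based on the gene length behind the deposited RPKM, the correction gave 0.30 (adjusted p = 0.255 from edgeR).

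Ppara (ENSMUSG00000022383.13, chromosome 15 from 85734983 to 85802819) was expressed at a much lower level. Only 12, 8, 12, 22 and 13 reads were counted in control mice 1 to 5 and 20, 25, 26, 18 and 28 in ketogenic mice 1 to 5. Control mouse 4 lay within the ketogenic range, and the other 4 control mice lay below every ketogenic mouse. CPM were 1.19 ± 0.488 and 1.97 ± 0.342 (SD, n = 5 each). The log2 fold change was 0.72 (standard error 0.283, 95% interval 0.11 to 1.34), with an unadjusted p of 0.0249 and an adjusted p of 0.207 (edgeR). Its exact permutation p was 0.0238. With the cardiomyocyte marker score as a covariate it was 0.40 (adjusted p = 0.765), and the part of cardiomyocyte RNA in the difference was not tested.

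Ppard (ENSMUSG00000002250.15, chromosome 17 from 28232700 to 28301474), the receptor known for its role in muscle fatty acid use, was the only member with a lower mean on the ketogenic diet. Counts were 114, 193, 120, 132 and 128 in control mice and 115, 123, 104, 153 and 137 in ketogenic mice, and the groups overlapped. Control mouse 2 stood above all others at 15.8 CPM. The means of 12.02 ± 2.19 and 10.6 ± 1.502 CPM gave a log2 fold change of −0.18 (95% interval −0.49 to 0.13, adjusted p = 0.539 from edgeR).

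Per unit length, Pparg made up 93.9% ± 0.505 of the summed RPKM of the 3 receptors on the control diet and 94.96% ± 0.920 on the ketogenic diet (SD, n = 5 each). Ppard contributed 5.42% ± 0.507 and 4.12% ± 0.856, and Ppara 0.664% ± 0.281 and 0.922% ± 0.228. In a two-sided exact permutation test the share of Ppard gave p = 0.0317, which became 0.0794 after adjustment over the 5 shares compared here. The shares of Pparg and Ppara gave adjusted permutation p-values of 0.132 and 0.169. None of the 3 passed after adjustment.

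The RXR partners had nearly the same means on both diets. Rxra (ENSMUSG00000015846.14, chromosome 2 from 27676440 to 27762957) had counts of 968, 1046, 874, 849 and 1020 in control mice and 1016, 873, 831, 1201 and 1101 in ketogenic mice. Its means were 83.7 ± 6.01 and 84.3 ± 11.2 CPM, and the log2 fold change of 0.01 had a 95% interval from −0.18 to 0.20 (adjusted p = 0.966 from edgeR). Rxrb (ENSMUSG00000039656.16, chromosome 17 from 34031812 to 34038399) had counts of 241, 269, 233, 204 and 185 in control mice and 279, 247, 178, 211 and 294 in ketogenic mice. The difference was 0.03 on the log2 scale (95% interval −0.28 to 0.33, adjusted p = 0.942 from edgeR), and 0.34 with the cardiomyocyte marker score as a covariate (adjusted p = 0.513). The highest and the lowest value of each of these genes both came from ketogenic mice on the CPM scale. Rxra supplied 78.7% ± 2.44 and 78.5% ± 3.30 of the summed RPKM of the pair (exact permutation p = 0.921).

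Ncor1 (ENSMUSG00000018501.17, chromosome 11 from 62316426 to 62458541) encodes the scaffold of the corepressor complex that holds the histone deacetylase HDAC3. Counts were 2323, 2964, 2762, 2504 and 2683 in control mice and 2892, 2581, 2879, 3097 and 3177 in ketogenic mice. The CPM ranges overlapped, with means of 232.6 ± 12.3 and 245.6 ± 9.69 CPM. The log2 fold change of 0.08 had the second narrowest interval of the 10 genes, −0.01 to 0.17 (adjusted p = 0.362 from edgeR). Ttc19, Pigl and the pseudogene Gm12276 overlap Ncor1 on the other strand, with at most 228 reads each in any mouse. Without strand, reads of overlapping genes cannot be told apart.

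**Figure D2:**
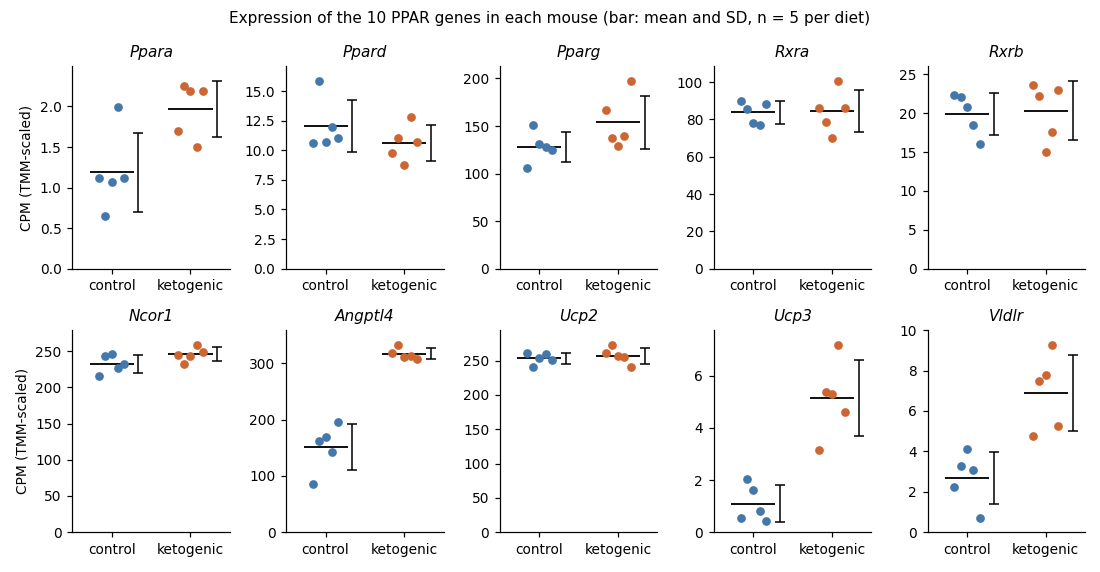
CPM of each of the 10 genes (vertical axes, each starting at 0) in the 5 control (blue) and 5 ketogenic (orange) mice, with the mean as a horizontal bar and the SD beside it. Angptl4, Ucp3 and Vldlr show 2 separate groups of points, whereas the points of the other 7 genes overlap between the diets.

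Angptl4 (ENSMUSG00000002289.15, chromosome 17 from 33773750 to 33781830) encodes a secreted inhibitor of lipoprotein lipase and is a classical target of all 3 PPARs. Its counts were 919, 1973, 1909, 1568 and 2260 in control mice 1 to 5 and 3760, 3702, 3691, 3753 and 3919 in ketogenic mice 1 to 5. Every ketogenic mouse lay above every control mouse. CPM values of control mice were 85.3, 162, 170, 142 and 195, and those of ketogenic mice 319, 333, 312, 314 and 307. Mean expression rose from 151 ± 41.4 to 317 ± 9.92 CPM (SD, n = 5 each), a fitted fold of 2.10 with a 95% interval from 1.65 to 2.67. On the log2 scale this was 1.07 with a standard error of 0.160, an adjusted p of 0.00885 in edgeR and rank 40 of all tested genes by p. The permutation test on this gene gave 0.00794, the smallest p that the 252 groupings allow.

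Angptl4 varied more among the control mice. The coefficient of variation of its counts was 29.8% in control and 2.42% in ketogenic mice, and the counts amounted to 26.1% and 56.9% of the start positions on its principal transcript. After a correction of counts for start positions that hold at most 1 read, chosen after the data had been seen, the diet difference amounted to 1.39 on the log2 scale (SE 0.184, edgeR adjusted p = 0.00411). With this correction, which used the principal transcript, 1.56% of all genes passed. Based on the gene length behind the deposited RPKM, the correction gave 1.22 (edgeR adjusted p = 0.00735). Control mouse 1, with the most macrophage marker RNA, had the lowest Angptl4 level, and without that mouse the log2 fold change was 0.92, the lowest value with any single mouse omitted. With the cardiomyocyte marker score as a covariate it was 0.93 with an unadjusted p of 0.00214 and an adjusted p of 0.176, in a fit that called 10 genes in all against 213. The part of cardiomyocyte RNA in the rise was not tested.

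**Figure D3:**
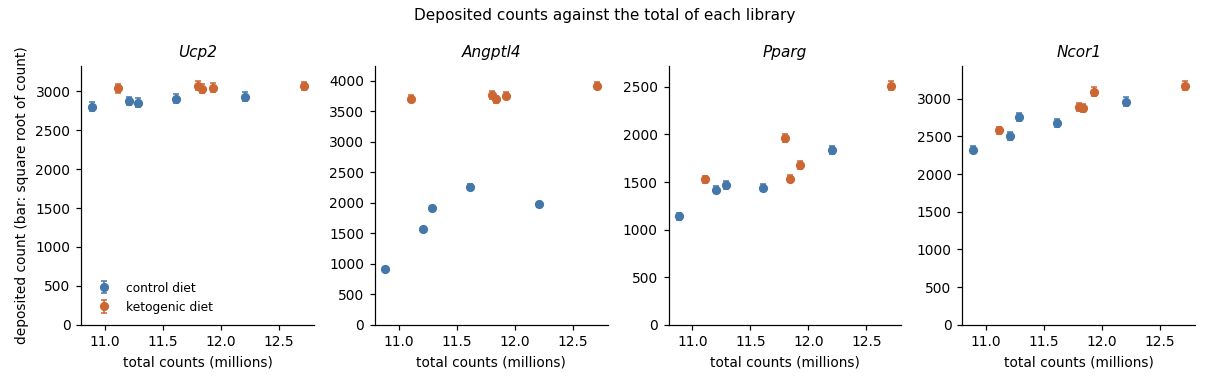
Deposited counts of Ucp2, Angptl4, Pparg and Ncor1 (vertical axes, bars of ± the square root of the count) against the total counts of each library, in blue for the control and orange for the ketogenic diet. Counts of Ucp2, and of Angptl4 on the ketogenic diet, vary little with library size, while those of Pparg and Ncor1 are generally higher in larger libraries.

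Ucp3 and Ucp2 encode mitochondrial carriers of the uncoupling protein family. Ucp3 is known chiefly from skeletal muscle, heart and brown fat, while Ucp2 is expressed widely. The genes lie next to each other on the plus strand of chromosome 7, with 6904 bases between the end of Ucp3 (ENSMUSG00000032942.14, 100472990 to 100486432) and the start of Ucp2 (ENSMUSG00000033685.12, 100493337 to 100502020). The 250 bases before the RefSeq start of each gene (build GRCm38.p6, plus strand, 5′ to 3′) are shown because the balance between these neighbours differed between the diets. Capitals mark AGGTCA, the hexamer of a PPAR element.
Ucp3, chr7:100472741-100472990: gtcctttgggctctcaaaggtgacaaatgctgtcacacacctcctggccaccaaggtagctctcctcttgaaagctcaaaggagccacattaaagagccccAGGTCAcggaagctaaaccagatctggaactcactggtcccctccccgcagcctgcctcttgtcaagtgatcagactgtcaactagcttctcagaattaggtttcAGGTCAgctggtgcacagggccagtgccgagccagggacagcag
Ucp2, chr7:100493108-100493357: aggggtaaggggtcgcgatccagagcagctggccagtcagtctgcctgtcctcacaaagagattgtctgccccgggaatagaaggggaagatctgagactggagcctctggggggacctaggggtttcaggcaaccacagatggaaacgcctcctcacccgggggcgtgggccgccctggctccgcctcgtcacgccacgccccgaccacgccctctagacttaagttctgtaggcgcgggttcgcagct
The hexamer begins 149 and 44 bases before the start of Ucp3 and was not found in the window of Ucp2 on either strand. Windows of 300 bases (250 bases before and 50 after a start) were taken from the numbered, X and Y chromosomes, with 1 numbered chromosome left out. The hexamer was present in 16.3% of these 32851 mouse windows. It was present in 4 of 15 windows of the 9 members with an entry, 2 of Pparg, 1 of Rxra and 1 of Ucp3. The paired element AGGTCANAGGTCA was present in 0.0396% of all windows, a looser form, AGGNCANAGGNCA, in 0.381%, and neither in a window of a member. These matches describe the letters only.

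Ucp3 showed the highest fold change of the set. Reads were few, 6, 25, 18, 9 and 5 in control mice 1 to 5 and 37, 60, 63, 86 and 59 in ketogenic mice 1 to 5, and the groups did not overlap. In CPM the control mice had 0.557, 2.05, 1.60, 0.815 and 0.432, and the ketogenic mice 3.14, 5.39, 5.32, 7.19 and 4.62. The means of 1.09 ± 0.703 and 5.13 ± 1.46 CPM (SD, n = 5 each) gave a fitted fold of 4.63 with a 95% interval from 2.62 to 8.20. On the log2 scale this was 2.21 with a standard error of 0.378, an adjusted p of 0.0178 in edgeR and an exact permutation p of 0.00794. Over the 10 fits that each omitted a mouse it ranged from 2.01 to 2.58, with adjusted p-values of at most 0.0481. The antisense gene Gm10603, which overlaps Ucp3 on the other strand, had 6 to 18 reads and means of 1.30 and 1.16 CPM.

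Cardiomyocyte marker RNA moved with Ucp3 among the ketogenic mice. Ketogenic mice 4, 2 and 3, which had the 3 highest Ucp3 levels, also had the 3 highest summed levels of cardiomyocyte markers (1007 to 1174 CPM). The control mice did not keep this order. Control mouse 2 had the most Ucp3 (2.05 CPM) and the lowest marker sum (684 CPM). Control mouse 3, with the highest control sum (891 CPM), had 1.60 CPM of Ucp3. With the marker score as a covariate the log2 fold change was 1.88, with an unadjusted p of 0.00852 and an adjusted p of 0.273. The part of cardiomyocyte RNA in the rise of Ucp3 was not tested. A filter that required 10 reads in every mouse removed Ucp3 from the test.

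Ucp2, in contrast, was abundant and had nearly the same mean on both diets. Its counts were 2804, 2932, 2856, 2872 and 2907 in control mice and 3075, 3037, 3033, 3049 and 3071 in ketogenic mice. As raw counts the groups did not overlap, a pattern that 3.02% of all tested genes showed in this direction, whereas the CPM of 253 ± 8.16 and 257 ± 11.7 overlapped. The log2 fold change was 0.02 (95% interval −0.06 to 0.10, adjusted p = 0.808 from edgeR). The variance of the Ucp2 counts was 0.842 times their mean in control mice and 0.121 times in ketogenic mice, less than independent reads give. The overlapping gene Dnajb13, on the other strand, had 31 to 104 reads.

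Of the summed RPKM of Ucp2 and Ucp3, Ucp3 made up 0.620% ± 0.415 on the control diet and 2.78% ± 0.778 on the ketogenic diet (SD, n = 5 each). The exact permutation p was 0.00794, or 0.0397 after adjustment over the 5 shares. The highest control mouse reached 1.21% and the lowest ketogenic mouse 1.69%, so the shares did not overlap. Ucp2 thus remained the predominant carrier transcript of the pair on both diets.

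Vldlr (ENSMUSG00000024924.14, chromosome 19 from 27216484 to 27254231) encodes the receptor for very low density lipoproteins, which takes up triglyceride-rich particles. Counts were 24, 40, 46, 34 and 8 in control mice and 56, 83, 92, 111 and 67 in ketogenic mice. In CPM the control mice had 2.23, 3.28, 4.09, 3.08 and 0.692, and the ketogenic mice 4.75, 7.46, 7.77, 9.27 and 5.25. The groups did not overlap, as for Angptl4 and Ucp3, a pattern seen in 2.4% of all tested genes in this direction and 1.94% in the other. The means were 2.67 ± 1.29 and 6.90 ± 1.87 CPM, and the log2 fold change was 1.36 (standard error 0.347, 95% interval 0.61 to 2.12). This did not pass in edgeR (unadjusted p = 0.00201, adjusted p = 0.0743). DESeq2 gave 1.38 with an adjusted p of 0.00385, where 2.89% of genes were higher at that threshold. As for Ucp3, ketogenic mice 4, 3 and 2 had the highest Vldlr levels and the highest cardiomyocyte marker sums. Among the control mice, mouse 3 was highest in both, while mouse 2 had the lowest marker sum and mouse 5 the lowest Vldlr. With the cardiomyocyte marker score as a covariate the log2 fold change of Vldlr was 0.84 (adjusted p = 0.583 from edgeR). The part of cardiomyocyte RNA in it was not tested.

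**Figure D4:**
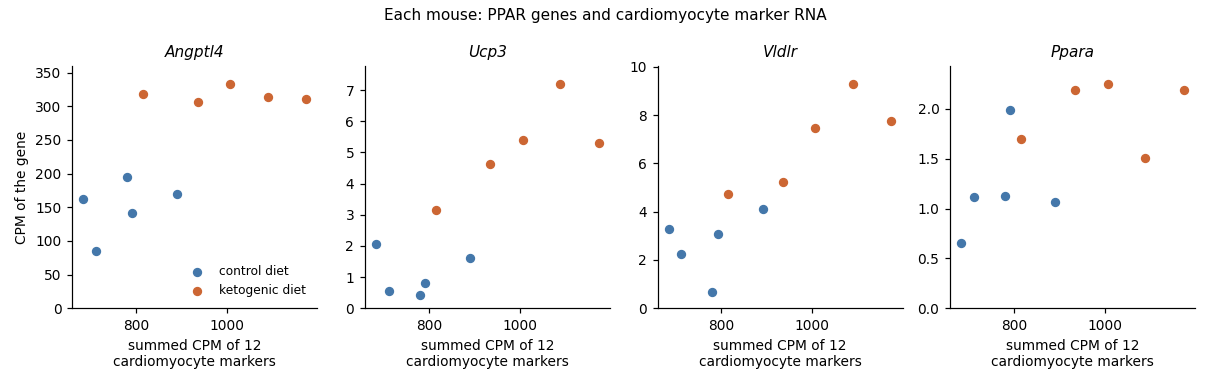
CPM of Angptl4, Ucp3, Vldlr and Ppara (vertical axes) against the summed CPM of 12 cardiomyocyte markers (horizontal axes) in each mouse, in blue for the control and orange for the ketogenic diet. The marker sum ran from 684 to 891 CPM in control and from 815 to 1174 CPM in ketogenic mice. Angptl4 lay between 307 and 333 CPM in the ketogenic mice, where its mean count was 56.9% of the start positions on its principal transcript. The part of the ceiling on reads per base in this narrow range was not tested.

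Set in order of mean RPKM over the 10 mice of both diets, the genes ran from Angptl4 (41.0) through Pparg (30.1), Ucp2 (27.4), Rxra (9.43), Ncor1 (9.38), Rxrb (2.57), Ppard (1.48), Ucp3 (0.480) and Vldlr (0.280) to Ppara (0.250). Only the steps from Ucp2 to Rxra, from Ncor1 to Rxrb and from Ppard to Ucp3 separated the ranges of the mice completely. Rxrb exceeded Ppard in all 10 mice although their ranges overlapped. Neighbouring genes at the other steps changed places between mice. Angptl4 exceeded Pparg in 7 of 10 mice, with means of 26.3 and 27.2 RPKM on the control diet and 55.6 and 33.0 RPKM on the ketogenic diet. Pparg exceeded Ucp2 in 6 mice, Rxra exceeded Ncor1 in 5, Ucp3 exceeded Vldlr in 8 and Vldlr exceeded Ppara in 6. Within a diet the order differed at these steps. On the control diet Pparg (27.2), Ucp2 (27.1) and Angptl4 (26.3 RPKM) led, and Ppara (0.187), Ucp3 (0.167) and Vldlr (0.156 RPKM) closed the order. On the ketogenic diet the last 3 were Ucp3 (0.793), Vldlr (0.405) and Ppara (0.313 RPKM), and Ncor1 (9.68) lay above Rxra (9.50 RPKM).

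In lists written with earlier results of these data known, the wider PPAR pathway was described with 79 further genes, of which 69 were tested. Of these, 10 rose and 0 fell in edgeR, or 14.5% against 1.34% of all tested genes. Because of how the lists were chosen, this comparison is a description. In DESeq2 14 rose and 1 fell, where 2.89% of all genes were higher and 349 genes were lower. The median log2 fold change of the 69 genes was 0.09. The cardiomyocyte marker RNA described above moved with the diet as well. With the marker score as a covariate 2 of these genes passed, Pdk4 among them, and its part in the other rises was not tested.

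The rises were found in 5 lists of target genes and relatives. In the fuel switch list, Pdk4, a kinase that restrains pyruvate oxidation, went from 51.3 ± 6.95 to 139 ± 15.8 CPM (log2 fold change 1.44, adjusted p = 0.000103 from edgeR). In that list 3 genes had too few reads to be tested. Of 18 tested fatty acid oxidation genes, 4 rose, 0 fell and all 18 had positive log2 fold changes, with a median of 0.18. They were Decr1, an enzyme for unsaturated fatty acids (0.49), Slc25a20, the mitochondrial acylcarnitine carrier (0.43), the acyl-CoA thioesterase Acot2 (0.27) and the acyl-CoA dehydrogenase Acadl (0.52), the last named after its values had been seen. Acot2 shares much sequence with Acot1, and how reads that fit both genes affected its count was not tested. For Cpt1a, which commits long-chain fatty acids to oxidation and was likewise named afterwards, the value was 0.27 with an adjusted p of 0.112 in edgeR. Acot2 did not pass with upper quartile factors or with the macrophage marker score as a covariate. With the replicate block, Decr1 alone of the 18 passed, and with the cardiomyocyte marker score none did.

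Among 6 tested lipid droplet genes, Plin2 (0.33, adjusted p = 0.00120) and Plin5 (0.90, adjusted p = 0.0491) rose in edgeR. Both encode coat proteins of the droplet surface. The largest Plin2 count amounted to 80.1% of the start positions on its principal transcript, and that of Plin5 to 2.64%. Plin5 did not pass with upper quartile factors, without a filter, with limma on log2(RPKM + 0.1), with limma-voom, with the replicate block or with either marker score as a covariate. Of 9 genes of fatty acid uptake and lipolysis, Fabp3, the heart fatty acid-binding protein, rose by 0.57 (adjusted p = 0.0204 from edgeR), from 8.92 ± 0.860 to 13.2 ± 0.704 CPM. Fabp3 did not pass with the replicate block or with the cardiomyocyte marker score as a covariate. No gene passed in edgeR among the 5 tested relatives of Angptl4 (1 lower at an unadjusted p under 0.05, 0 calls in DESeq2) or the 3 of Ucp2 and Ucp3 (1 higher and 1 lower unadjusted, and 1 higher and 1 lower by adjusted p in DESeq2).

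None of 7 further corepressor genes and 12 coactivator genes passed the adjusted threshold in edgeR, with medians of 0.00 and −0.06. At an unadjusted p under 0.05, 0 corepressors were higher and 1 lower, and 1 coactivator was higher and 2 were lower, and DESeq2 called 0 genes of either list. The third RXR gene, Rxrg, had a log2 fold change of 1.05 from 3.29 and 6.83 CPM (unadjusted p = 0.0191, adjusted p = 0.187 from edgeR).

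**Figure D5:**
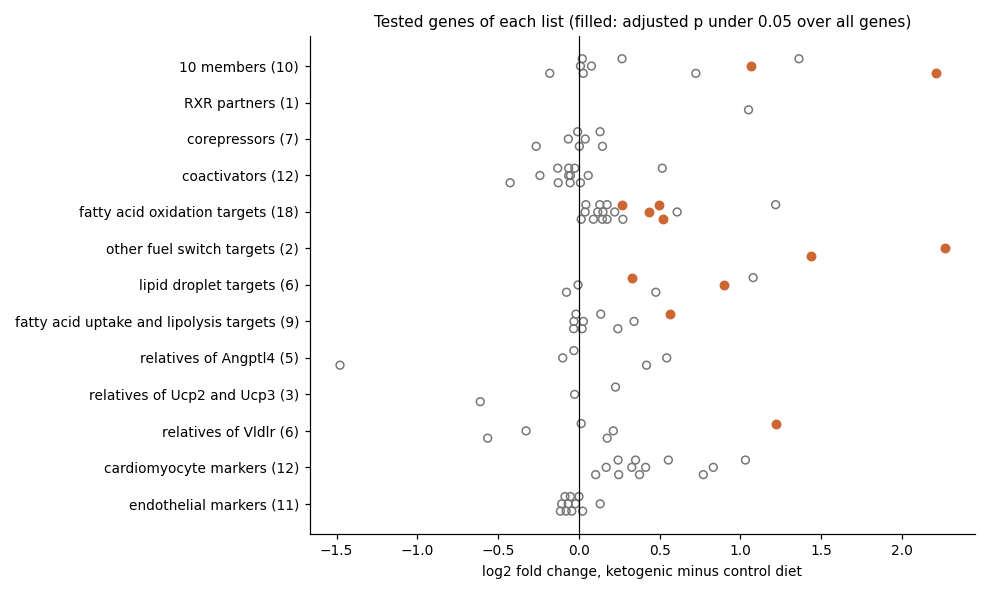
Log2 fold change on the ketogenic relative to the control diet (horizontal axis) of every tested gene in each list, with the number of genes in parentheses and genes with an adjusted p under 0.05 filled. Filled points lie to the right of 0 in 6 rows including the 10 members, and all 12 cardiomyocyte markers lie to the right of 0 with none filled.

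For the 5 members with an unadjusted p under 0.05, the genes with the most similar profile were sought by Pearson correlation of log2 CPM over the 10 mice, among 15948 other genes. Among the 3 genes most like Angptl4 were Aldh9a1 (r = 0.952) and Cldn15 (0.950). Ucp3 was most like Uchl1 (0.975), Tmem86a (0.945) and Epor (0.921), and Vldlr like Itih5 (0.953), Adi1 (0.927) and Ucp3 itself (0.915). Pparg was most like Neb (0.927), Fam117b (0.917) and Poc1b (0.910), and Ppara like Apopt1 (0.952), Ube2k (0.948) and Cthrc1 (0.939). All points share the libraries and their depth, and the 5 genes were picked for their diet difference, so these coefficients are a description. Among the members themselves, Ucp3 also ran with Angptl4 (r = 0.836), while Ppara and Pparg correlated weakly (0.276).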

How the data were processed

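PolyA RNA of CD31+ cardiac ECs from 10 mice was sequenced by the authors as 50-base single reads with the SMART-Seq v4 kit. The submitters' processing notes name bcl2fastq 2.17.1.14, STAR 2.3, HTSeq 0.6.0 and the build mm10. The annotation and any removal of duplicate reads are not given in the sources used here. The authors deposited raw counts per gene, and RPKM values, which divide the counts by gene length and library size.

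Columns were assigned to mice by their labels. Counts were tested with edgeR 4.0.16 (R 4.3.3) by the quasi-likelihood F-test after TMM scaling and filterByExpr, with Benjamini-Hochberg adjustment over 15949 genes. Standard errors are the log2 fold change over the square root of F. Log2 CPM used a prior count of 2. For single genes and RPKM shares, all 252 groupings of the mice entered a two-sided exact permutation test. Positions are from GENCODE M21 on GRCm38 (37902 of 46983 identifiers with the same version, 46488 without it). Promoter sequences are from RefSeq on GRCm38.p6.

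The members and gene lists were chosen with earlier results of these data known. Genes named are the members, up to 3 genes per pathway list with an adjusted p under 0.05 by smallest p, the 3 genes most correlated with each member with an unadjusted p under 0.05, and 7 cell type markers. Others, such as Rxrg, Ttn and genes that overlap a member, were named outside this rule. Some of these others are said to have been named after their values were seen. Not every gene the rule selects is reported. Alternatives were other scaling (DESeq2's size factors, upper quartile, library size alone), no filter or a minimum of 10 counts per mouse, DESeq2 1.42.0, limma 3.58.1 on log2(RPKM + 1) or log2(RPKM + 0.1), a block on the replicate number, a covariate for the cardiomyocyte marker score, shares of counts, and leaving out each mouse. Corrections for start positions, limma-voom, a macrophage marker score and shares by principal transcript length were chosen once the data were known. The tests were checked on simulated data.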

Additional observations from a re-analysis of the deposited data

Results flagged for a closer look

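Within 1 diet, 2 of 38 groups of 5 values examined had an extreme mouse whose gap to the next was more than 0.71 of the whole range, where about 1 in 20 groups, or 1.9, does so by chance. Ppard in control mouse 2 was 15.8 CPM, with a gap of 0.74 of the range of control mice. The macrophage marker score of ketogenic mouse 4 was 4.84 (mean log2 CPM of 9 markers), with a gap of 0.814 of the range of ketogenic mice. Without control mouse 2 the log2 fold change of Ppard was −0.06.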

How the results depend on the processing

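Of 393 recomputed values, 344 were labelled the same. For counts of genes this means a change of at most 1.5 times, and otherwise the same direction and side of the threshold. Of the rest, 26 counts moved by more than 1.5 times, 14 values reversed, 7 were weaker and 2 stronger. With the cardiomyocyte score as a covariate, 10 genes in all passed, with 0 members adjusted, 3 members unadjusted and 2 pathway genes, Angptl4 fell below the threshold at 0.93, Ucp3 at 1.88, and Ucp2 was −0.0058. DESeq2 called 795 genes and Vldlr passed at 1.38. A minimum of 10 counts in every mouse removed Ppara, Ucp3 and Vldlr and left 1 member adjusted and 2 unadjusted. With the macrophage score, 3 members passed unadjusted. Upper quartile factors gave Rxra −0.0047. On log2(RPKM + 1) Ucp3 had 0.61 and Vldlr 0.28, a scale that understates changes of low genes. The cause of the other shifts was not tested.

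Samples of the 2 diets share replicate numbers, but deviations of same-numbered mice correlated between −0.134 and 0.094, and no mouse correlated best with its own number. With the replicate block, 113 genes, 2 members adjusted, 3 members unadjusted and 5 pathway genes passed.

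Leaving out each mouse gave 86 (without control mouse 2) to 492 (without ketogenic mouse 2) genes, and every omission except that of control mouse 5 (152 genes) moved the count of 213 by more than 1.5 times. In all 10 sets 2 members passed adjusted, and 3 (without ketogenic mouse 5) to 5 unadjusted. Pathway genes numbered 5 to 10, with 5 without control mouse 3 and 6 without control mouse 2 or ketogenic mouse 3, 4 or 5. Rxra ranged from −0.060 to 0.076, Rxrb from −0.041 to 0.125, Ucp2 from −0.00051 to 0.050, and the Rxra share difference from −1.45 to 0.819 percentage points. The Ucp3 share difference ranged from 1.88 to 2.43 points. It missed the adjusted threshold in each of the 5 sets with 4 control mice (adjusted exact permutation p = 0.0794). The Ppard share difference ranged from −1.59 to −1.08 points and passed without ketogenic mouse 4 (adjusted exact permutation p = 0.0198). Depth limits Ppara, Ucp3 and Vldlr, with 5 to 111 reads per mouse. The ceiling on reads per base may limit Angptl4, Pparg and Ucp2 among the members, and abundant genes of the other lists.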
